A study of Danio rerio with 6 samples.

Results

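Genes for cytokine, chemokine and TNF family receptors were followed in sorted cardiac endothelial cells of regenerating zebrafish hearts. They were taken by gene name, with a pattern that covers interleukin receptors, the shared subunit il6st, colony-stimulating factor, interferon, LIF, oncostatin M, leptin, erythropoietin and growth hormone receptors, the TNF receptor superfamily and most chemokine receptors. The pattern matched 85 of 32520 gene IDs. Of these, 16 had at least 10 counts in 3 or more libraries and are described here one by one, and 69 were scarcer. Among the 85 are 7 that match by name alone, namely the genes for growth hormone-releasing hormone and its receptors, ghrelin and LEPROTL1, which do not encode cytokine receptors. One of these, ghrhr2, is among the 16.

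The study compared 2 groups of adult fish of strain Tu whose ventricle had been partly resected 7 days earlier. Fish of the DNK group carried 3 transgenes, namely the reporter kdrl:eGFP, the Cre driver kdrl:CreER and the loxP construct ubi:loxp-DsRed-stop-loxp-DN-xBrg1. After 4-hydroxytamoxifen for 3 days before resection, their kdrl-expressing cells were to make a dominant-negative Xenopus form of Brg1, an ATPase that moves nucleosomes as the motor of SWI/SNF complexes. The counts are per zebrafish gene, and the level of the transgene was not analysed here. Fish of the CtrlK group carried the loxP transgene and kdrl:eGFP without the Cre driver. The treatment protocol gives them the same 4-hydroxytamoxifen, while other labels call them untreated or wild-type siblings, so that the Cre driver, and perhaps the drug, cannot be told apart from the dominant-negative Brg1. GFP-positive cells were sorted from the ventricles of about 15 hearts and gave 3 libraries per group. Whether each library had its own pool of hearts is not stated in the labels, and the p-values below reflect the spread among libraries alone, which may be technical.

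Many cytokine receptors, though not all, are built from different subunits that the cell combines. In these a private chain binds the ligand, and a shared chain such as gp130 (il6st) or the common beta chain (csf2rb) passes the signal on. The signal goes to JAK kinases and STAT factors, which SOCS proteins then restrain. Members of the TNF receptor superfamily recruit TRAF adaptors and cIAP ligases instead and lead to NF-kB or to cell death. In hearts, endothelium and the leukocytes that enter an injury both carry such receptors, and in zebrafish signalling by Il11 through Il11ra and gp130 is known to be needed for heart regeneration.

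Gene counts came to 174371 to 227373 per library, and 3 counts stood for 16.2 to 19.4 normalized CPM, the unit used here for counts scaled to TMM-adjusted library size. Reads not assigned to a gene outnumbered gene counts by 77.5 to 91.7 to 1 in CtrlK and by 66.5 to 67.1 to 1 in DNK. Most of them had been set aside for low alignment quality, which took 58.0% to 59.2% of each library's total, so they are not shown to lie outside genes. The endothelial marker kdrl, which also supplied the promoter of the reporter and the Cre driver, had 51.1, 60.6 and 37.8 normalized CPM in CtrlK replicates 1, 2 and 3 and 67.1, 88.6 and 71.2 in DNK. For cdh5, which defines endothelium, CtrlK gave 389 counts and DNK 494. Markers of other cells were present too. Endothelial markers summed to 1934 to 2578 CPM in CtrlK and 2963 to 3679 in DNK, fibroblast and mural markers to 2917 to 3619 and 4173 to 5296, and cardiomyocyte markers to 1301 to 1699 and 1475 to 2019. The first pair of these lists did not overlap between the groups, with DNK higher. The list of 31 IDs for macrophage and neutrophil markers summed to 1027 to 1829 CPM in CtrlK and 2303 to 2515 CPM in DNK. All 8 of its tested members had positive log2 fold changes and 0 were called by edgeR (4 at an unadjusted p under 0.05). Over all 3792 tested genes 46.9% had positive log2 fold changes, and 942 had an unadjusted p under 0.05 by edgeR. Lymphocyte markers summed to 480 to 651 CPM in CtrlK and 224 to 287 CPM in DNK, thrombocyte markers to 1257 to 1643 and 927 to 1164, and erythroid markers to 140.4 to 187 and 110.0 to 213. The T cell gene cd8a, the only lymphocyte marker tested, fell (log2 fold change −1.38 ± 0.33, edgeR adjusted p = 0.0226), against 2.40% of all tested genes called lower. Among thrombocyte markers F13A1 was nearest to the threshold (−1.18 ± 0.36, adjusted p = 0.0583). It passed scaled to the 200 most abundant genes (0.00711), with library size only (0.0255), with DESeq2 (0.0394) and with replicate number as a block (0.0479). In the other settings it did not, with 0.241 without DNK replicate 1. Against 4.72% of all tested genes called higher in DNK, 1 of 10 tested endothelial markers was called higher, vwf (1.59 ± 0.36, adjusted p = 0.0179). Of 7 tested cardiomyocyte markers 1 was called higher, atp2a2a (2.03 ± 0.58, adjusted p = 0.0453). The median log2 fold change of these 7 was 0.03, with 4 positive. Of 12 tested fibroblast and mural markers 2 were called higher, PDGFRB and COL1A2 (1.70 ± 0.40 and 1.54 ± 0.37, adjusted p = 0.0205 and 0.0229). Each of these 5 calls was lost when at least 1 single library was left out, with adjusted p of up to 0.102 for cd8a, 0.0620 for vwf, 0.178 for atp2a2a, 0.0915 for PDGFRB and 0.0838 for COL1A2. All 5 were lost with the ratio of unassigned reads to gene counts as a covariate. Scaling to the 200 most abundant genes ended those of vwf (0.0748), atp2a2a (0.135), PDGFRB (0.108) and COL1A2 (0.119). The call of atp2a2a was also lost with DESeq2 (0.0782) and limma-voom (0.171), among other settings, and that of cd8a with no filter (0.0777). In bulk libraries more cells of a type and more RNA per cell cannot be told apart, and the part of these cells in the receptor values was not tested.

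Transcripts for a receptor chain of IL-4 and IL-13 and for the G-CSF receptor rose in DNK. il13ra1 was 4.95-fold higher and CSF3R 6.49-fold higher. These were 2 of 14 receptor genes with enough counts for the test, against 4.72% of all 3792 tested genes called higher in DNK. In CtrlK replicate 1 CSF3R fell below the count minimum of the filter, so it entered the test through DNK, where it was high. The direction of CSF3R is thus not independent of the filter. With no filter it was called as well (edgeR adjusted p = 4.72e-07). None of the 14 was called lower, against 2.40% of all tested genes. The other 12 did not pass, with csf2rb, the gene of the common beta chain, nearest to the threshold.

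**Figure D1:**
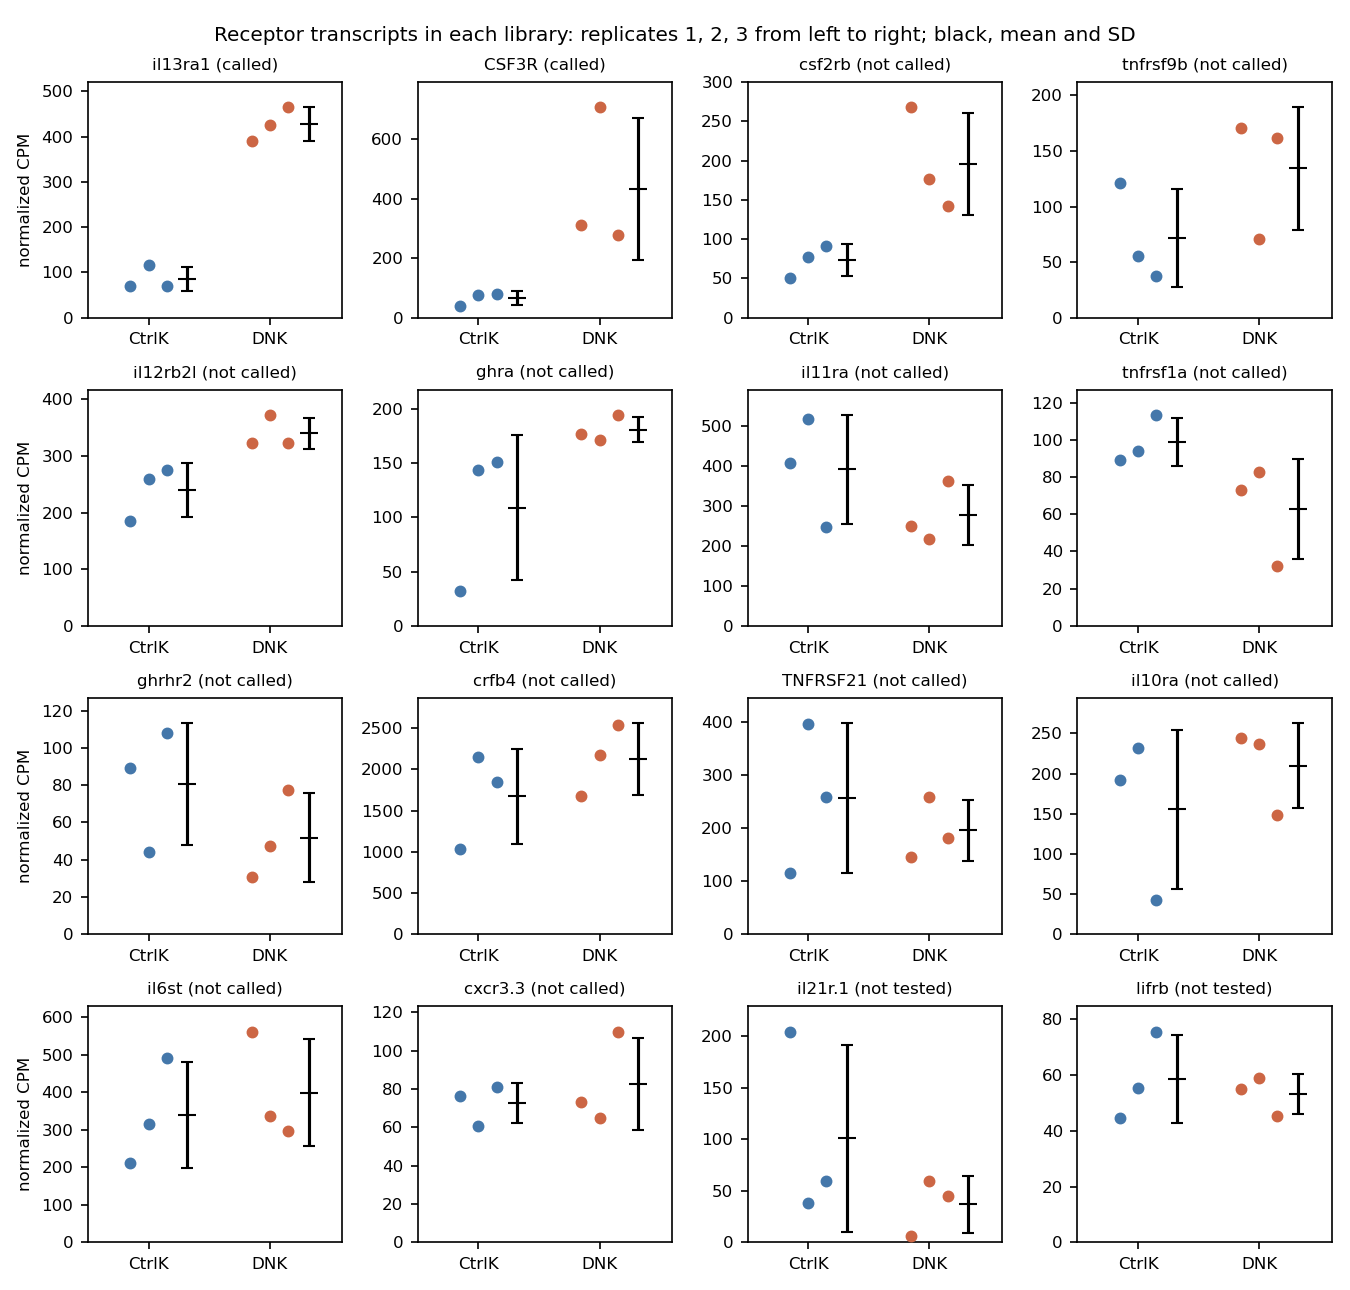
Normalized CPM (vertical axis, from 0, a separate scale in each panel) of the 16 receptor genes in the 3 CtrlK libraries (blue) and the 3 DNK libraries (orange), with the mean and SD in black. For il13ra1 the CtrlK libraries lie between 70.1 and 116 CPM and the DNK libraries between 391 and 466 CPM.

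il13ra1 (ENSDARG00000080020) encodes the chain that binds IL-13 and, in mammals, forms the type II receptor for IL-4 and IL-13 together with IL-4R alpha. It had 70.2, 116 and 70.1 normalized CPM in CtrlK replicates 1, 2 and 3 and 391, 425 and 466 in DNK, from 11, 21 and 13 counts and 64, 72 and 72 counts. Every DNK library was above every CtrlK library, and the DNK libraries lay close together. The means were 85.4 ± 26.3 and 427 ± 37.7 CPM (SD, n = 3 each), with a log2 fold change of 2.31 ± 0.36 (SE, edgeR adjusted p = 0.00449). Leaving out each library in turn gave log2 fold changes of 2.21 to 2.62 and adjusted p of 0.00949 to 0.0180. The gene next to it in the RefSeq gene order of GRCz12tu, dock11, had 32 counts in CtrlK and 33 in DNK.

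The possible partners and ligands of il13ra1 were scarce in both groups. For il4r.1, the gene of the IL-4R alpha chain, 2 counts were seen in CtrlK against 3 in DNK, and the common gamma chain genes il2rga and il2rgb had 0 and 1 counts and 2 and 2 counts. il13ra2, which in mammals encodes a decoy receptor for IL-13, gave 5 counts in CtrlK against 1 in DNK. The ligand genes il4 and il13 had 8 and 9 counts in CtrlK and 0 and 6 in DNK. il4 was seen in each CtrlK library, with 1, 5 and 2 counts, and in no DNK library. None of these genes had enough counts for the main test.

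CSF3R (ENSDARG00000045959) encodes the receptor for G-CSF, which drives the formation of neutrophils. It had 38.3, 77.2 and 80.9 CPM in CtrlK replicates 1, 2 and 3 and 311, 709 and 278 in DNK, from 6, 14 and 15 counts and 51, 120 and 43 counts. The groups did not overlap, and DNK replicate 2 stood above the other DNK libraries. With 6 counts CtrlK replicate 1 was too low for the filter, so CSF3R entered the test through DNK. The means were 65.5 ± 23.6 and 433 ± 240 CPM (SD, n = 3 each), with a log2 fold change of 2.70 ± 0.46 (SE, edgeR adjusted p = 0.00529). Without DNK replicate 2 the log2 fold change was 2.18 (adjusted p = 0.0243), the lowest of the fits that left out a library, and the highest was 2.97. Its ligand genes csf3a and csf3b had 3 and 1 counts in CtrlK and 8 and 2 in DNK. In the same gene order CSF3R stands next to cyb5r4, which had 1 count in all.

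Because CSF3R is a gene of granulocytes and their precursors, the leukocyte markers were read beside it. As given above, the 8 tested macrophage and neutrophil markers were all on the positive side (median log2 fold change 0.96, 0 called by edgeR), and the sum over the whole list was higher in every DNK library than in every CtrlK library. An exact permutation test of the list's share of gene counts gave p = 0.1, the smallest possible with 3 libraries per group. Such separation was common. Sums for endothelial, fibroblast and mural, JAK and STAT, SOCS and phosphatase, TNF receptor adaptor and NF-kB genes were also higher without overlap. Those of lymphocyte and thrombocyte markers were lower without overlap. Some single macrophage and neutrophil markers were scarce. Those given here were picked after their values were seen and do not stand for the tested markers, which were all positive. lyz, the lysozyme gene of these cells, had 0 counts in all 6 libraries, which allows up to 16.2 to 19.4 normalized CPM per library for counting error alone. The gelatinase gene MMP9 of neutrophils and macrophages gave 4 counts in CtrlK against 2 in DNK, and ptprc, the pan-leukocyte gene for CD45, gave 0 against 7. SPI1 (ENSDARG00000000767), a myeloid transcription factor, averaged 31.4 ± 20.9 CPM in CtrlK against 109 ± 9.87 in DNK (SD, n = 3) and did not pass (log2 fold change 1.74 ± 0.52, edgeR adjusted p = 0.0541). SPI1 passed without CtrlK replicate 3 (0.0388) and scaled to unassigned reads (0.0422), and in no other setting. Its adjusted p was 0.153 without CtrlK replicate 1, 0.145 scaled to the 200 most abundant genes (log2 fold change 1.02) and 0.138 with limma-voom. With the ratio of unassigned reads to gene counts as a covariate its log2 fold change was 0.0052. The part of these cells in the values of CSF3R, csf2rb and il13ra1 was not tested.

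The 3 receptor genes with the smallest p include csf2rb, whose product in mammals is shared by the receptors for IL-3, IL-5 and GM-CSF. It had 51.1, 77.2 and 91.7 CPM in CtrlK replicates 1, 2 and 3 and 268, 177 and 142 in DNK. Here too every DNK library was above every CtrlK library. With 8 counts CtrlK replicate 1 was too low for the filter, so csf2rb also entered the test through DNK. The log2 fold change was 1.40 ± 0.44 (SE, edgeR adjusted p = 0.0649), so csf2rb was not called, although it passed when libraries were scaled to unassigned reads (adjusted p = 0.0462). Scaled to the 200 most abundant genes it was 0.63 (adjusted p = 0.271). Without DNK replicate 1, its highest library, the log2 fold change was 1.15.

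**Figure D2:**
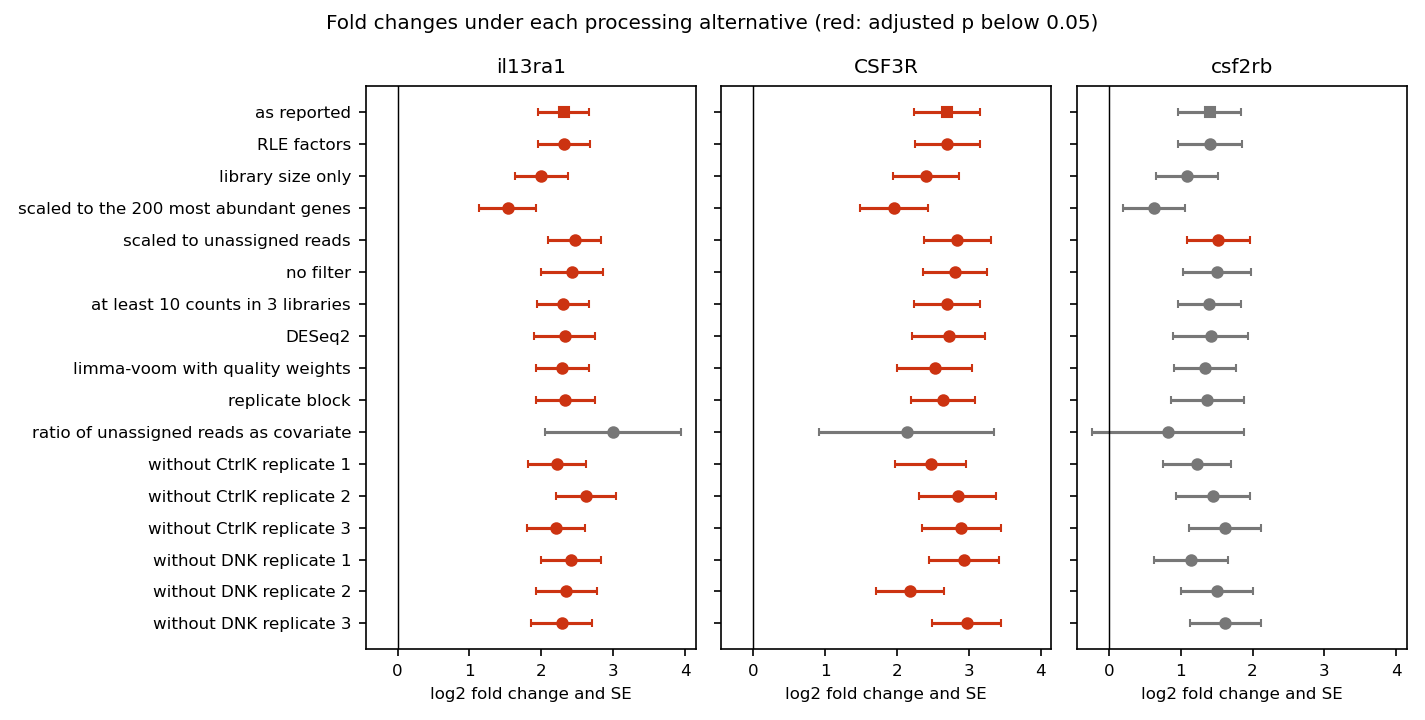
Log2 fold change, DNK minus CtrlK (horizontal axis, points with SE bars), of il13ra1, CSF3R and csf2rb as reported (square) and under 16 other settings (circles), in red where the adjusted p was below 0.05. il13ra1 and CSF3R are red in each setting except the one with a covariate, and csf2rb only when scaled to unassigned reads.

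Both calls held in 15 of the 16 other settings. Over these 15 the log2 fold change of il13ra1 ranged from 1.53 to 2.62 (adjusted p of 1.28e-05 to 0.0180) and that of CSF3R from 1.96 to 2.97 (adjusted p of 4.72e-07 to 0.0246). The lowest values, 1.53 and 1.96, came when libraries were scaled to their 200 most abundant genes, a scaling that also moved the median log2 fold change of all tested genes from −0.07 to −0.86. Relative to that median il13ra1 stood at 2.38 as reported and at 2.39 under the scaling, and CSF3R at 2.77 and 2.82. The exception was a model that also held, as a covariate, the ratio of unassigned reads, most of them of low alignment quality, to gene counts. In it il13ra1 stood at 3.00 ± 0.94 (SE, edgeR adjusted p = 0.681) and CSF3R 2.13 ± 1.21 (SE, adjusted p = 0.785) and edgeR called 1 gene in all (249 at an unadjusted p under 0.05). This ratio was lower in every DNK library than in every CtrlK library, so it and the group cannot be told apart.

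**Figure D3:**
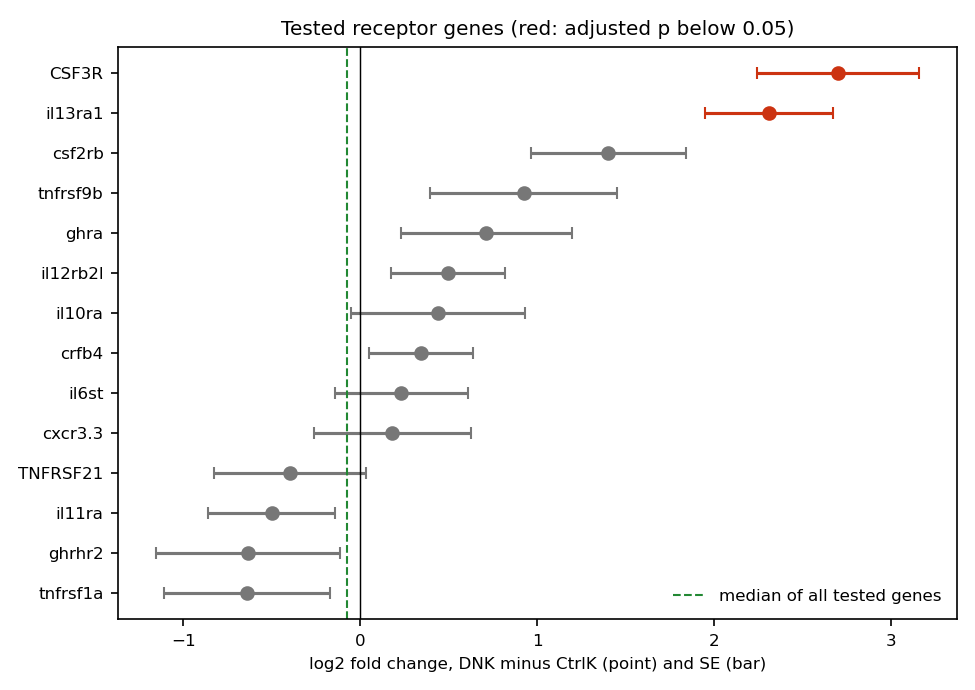
Log2 fold change, DNK minus CtrlK (horizontal axis), with its SE for the 14 tested receptor genes, in red where the adjusted p was below 0.05. CSF3R (2.70) and il13ra1 (2.31) are red, and the dashed line marks the median of all tested genes at −0.07.

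Among the 14 tested receptor genes 10 had positive log2 fold changes and 4 negative ones, with a median of 0.39. Over all 3792 tested genes the median was −0.07 and 46.9% were positive. In 5 of the 14 every DNK library was above every CtrlK library, against 16.2% of all tested genes, and in 1 every DNK library was below, against 14.6%. CSF3R, csf2rb, ghra, tnfrsf9b and il10ra each had a CtrlK library too low for the filter and entered the test through DNK. In turn tnfrsf1a entered through CtrlK, and ghrhr2 through libraries of both groups. The share of genes on the positive side is thus not independent of the filter. The sign of the median depended on the scaling. It was 0.076 with library size alone and −0.41 when scaled to the 200 most abundant genes, where the median of all genes was −0.39 and −0.86. In both cases it stayed above the median of all genes.

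The signal-transducing chain of the IL-6 family and the receptor for Il11 were both well represented and did not pass. il6st, the gene of gp130, had 211, 314 and 491 CPM in CtrlK replicates 1, 2 and 3 and 561, 337 and 298 in DNK. The groups overlapped, and the log2 fold change was 0.23 ± 0.38 (SE, edgeR adjusted p = 0.739). il11ra had 408, 518 and 248 CPM in CtrlK and 250.2, 218 and 362 in DNK, which overlapped as well. Its log2 fold change was −0.50 ± 0.36 (SE, edgeR adjusted p = 0.411). When libraries were scaled to the 200 most abundant genes il11ra passed as lower (log2 fold change −1.32, adjusted p = 0.0320). Relative to the median of all genes it was then at −0.46, against −0.43 as reported.

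The ligand gene il11a gave 81 counts in CtrlK against 76 in DNK, and its copy il11b 3 against 2. The other chains of the family were scarcer. lifrb, a receptor gene for LIF-like ligands, had 7, 10 and 14 counts in CtrlK and 9, 10 and 7 in DNK, too few for the filter of the main test. When 10 counts in 3 libraries sufficed for entry, its log2 fold change was −0.15 ± 0.50 (SE, edgeR adjusted p = 0.880). il6r, the IL-6 binding chain, had 3, 1 and 3 counts in CtrlK and 9, 10 and 3 in DNK, and osmr had 4 and 5 in all. il6r was tested only with no filter, where its log2 fold change was 1.79 ± 0.82 (SE, edgeR adjusted p = 0.403). For the ligands il6 and osm 1 count each was seen, in DNK.

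**Figure D4:**
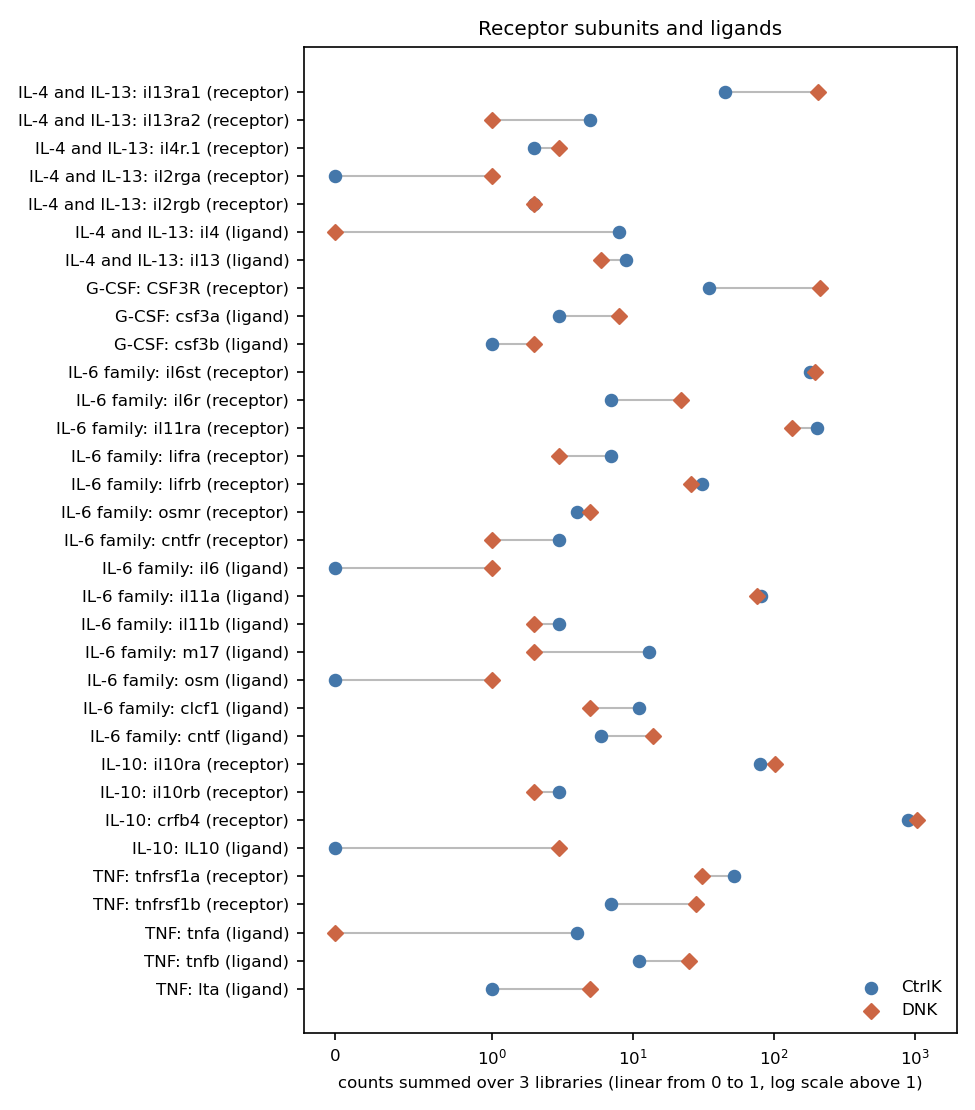
Counts summed over the 3 libraries of a group (horizontal axis, linear from 0 to 1 and log scale above) for receptor subunits and ligands of 5 systems, with CtrlK as blue circles and DNK as orange diamonds. il13ra1 goes from 45 to 208 counts and CSF3R from 35 to 214, while their ligands have at most 9 counts in either group.

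Receptors of the IL-10 and interferon class were represented mainly by crfb4 and il10ra. crfb4 encodes a class II cytokine receptor chain and had 1034, 2150.2 and 1845 CPM in CtrlK replicates 1, 2 and 3 and 1672, 2173 and 2536 in DNK. CtrlK replicate 1 was the lowest and the rest of the values overlapped, with a log2 fold change of 0.34 ± 0.30 (SE, edgeR adjusted p = 0.500). il10ra, the ligand-binding chain for IL-10, had 191, 232 and 43.2 CPM in CtrlK and 244, 236 and 149 in DNK. Its groups overlapped (log2 fold change 0.44 ± 0.49, edgeR adjusted p = 0.608). The gene listed as il10rb had 3 and 2 counts, and the ligand gene IL10 had 0 and 3. Of the interferon gamma receptor genes, ifngr1 gave 24 counts in CtrlK against 21 in DNK, ifngr1l had 10 and 10, and ifngr2 had 3 and 6.

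il12rb2l, named for its likeness to the signalling chain of the IL-12 receptor, had 185, 259 and 275 CPM in CtrlK replicates 1, 2 and 3. In DNK it had 323.4, 372 and 323.5. The groups did not overlap, yet the log2 fold change was 0.50 ± 0.32 and did not pass (SE, edgeR adjusted p = 0.364). Scaled to the 200 most abundant genes it was −0.27. A neighbour in the RefSeq gene order of GRCz12tu is smarca4a, the gene of zebrafish Brg1. Its human-style name belongs to 2 IDs, with 29 and 27 counts (ENSDARG00000077226) and 18 and 4 counts (ENSDARG00000104339) in CtrlK and DNK. il12rb1, the other chain of that receptor, had 0 counts in all libraries. il21r.1, named for the receptor of the lymphocyte cytokine IL-21, had 32, 7 and 11 counts in CtrlK and 1, 10 and 7 in DNK. CtrlK replicate 1 held most of the CtrlK counts, and under the laxer entry rule of 10 counts in 3 libraries the log2 fold change was −1.41 ± 0.70 (SE, edgeR adjusted p = 0.234).

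Of 11 genes of the TNF receptor superfamily 3 could be tested and 0 passed by edgeR or DESeq2, nor did any have an unadjusted p under 0.05 by edgeR. tnfrsf1a, the gene of the death-domain receptor for TNF, had 89.3, 93.7 and 113 CPM in CtrlK replicates 1, 2 and 3 and 73.2, 82.7 and 32.3 in DNK. Every DNK library was below every CtrlK library, with a log2 fold change of −0.64 ± 0.47 (SE, edgeR adjusted p = 0.419). It passed as lower when scaled to the 200 most abundant genes (log2 fold change −1.42, adjusted p = 0.0428), where relative to the median of all genes it was at −0.56, against −0.57 as reported. tnfrsf1b, the gene of the second TNF receptor, which lacks a death domain, went the other way in raw counts. It had 3, 3 and 1 counts in CtrlK and 10, 14 and 4 in DNK, so that the groups did not overlap, but it was too scarce for the main test. With no filter its log2 fold change was 2.13 ± 0.78 (SE, edgeR adjusted p = 0.185). The difference between both TNF receptor genes was not tested.

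TNFRSF21, the gene of death receptor 6, had 115, 397 and 259 CPM in CtrlK replicates 1, 2 and 3 and 146, 259.8 and 181 in DNK. The groups overlapped, and the log2 fold change of −0.40 ± 0.43 (SE, edgeR adjusted p = 0.599) turned to 0.077 without CtrlK replicate 2. tnfrsf9b, a copy of the gene for the lymphocyte costimulatory receptor 4-1BB, had 121, 55.1 and 37.8 CPM in CtrlK and 171, 70.9 and 162 in DNK. Its groups overlapped, with a log2 fold change of 0.92 ± 0.53 (SE, edgeR adjusted p = 0.296). Among the scarcer genes of the superfamily TNFRSF19 gave 22 counts in CtrlK against 31 in DNK, tnfrsf14 had 18 and 21 and tnfrsf18 had 6 and 14. The ligand genes tnfa and tnfb had 4 and 11 counts in CtrlK and 0 and 25 in DNK.

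ghra, a growth hormone receptor gene, had 31.9, 143 and 151 CPM in CtrlK replicates 1, 2 and 3 and 177, 171 and 194 in DNK. Every DNK library was above every CtrlK library, but CtrlK replicate 1 alone made most of the distance. The log2 fold change was 0.71 ± 0.48 (SE, edgeR adjusted p = 0.388) and fell to 0.32 without CtrlK replicate 1. Its neighbour in the RefSeq gene order, selenop, the gene of a selenium transport protein, rose by 2.19 ± 0.41 (log2 fold change, SE, edgeR adjusted p = 0.00947), or by 1.47 scaled to the 200 most abundant genes. The second copy, ghrb, had 15 and 11 counts. prlrb, a prolactin receptor gene of the same family that the name pattern does not take, fell from 83.0, 60.6 and 59.3 CPM to 0, 11.8 and 12.9. With 13, 11 and 11 counts in CtrlK and 0, 2 and 2 in DNK it entered the test through CtrlK alone. Its direction is thus not independent of the filter. Of 3 tested receptor genes of these families outside the pattern, prlrb was the 1 called, against 2.40% of all tested genes called lower. Its log2 fold change was −2.93 ± 0.83 (SE, edgeR adjusted p = 0.0453). That call was lost when each library in turn was left out (adjusted p of 0.0983 to 0.191, log2 fold change −2.34 without DNK replicate 1). It was also lost scaled to unassigned reads (0.0528), under the laxer entry rule (0.0505), with limma-voom (0.0613) and with the replicate block (0.0554). The covariate ended it as well (0.806).

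Of 19 chemokine receptor genes in the pattern 1 was frequent enough to be described. cxcr3.3, in zebrafish a scavenging receptor of macrophages, had 76.6, 60.6 and 80.9 CPM in CtrlK replicates 1, 2 and 3 and 73.2, 65.0 and 110.0 in DNK. The groups overlapped (log2 fold change 0.18 ± 0.44, edgeR adjusted p = 0.827). Its neighbour cxcr3.2, which encodes the signalling receptor, had 7 and 4 counts. In 6 of the 19 no count was seen in any library. ghrhr2, which is no cytokine receptor gene, had 89.3, 44.1 and 108 CPM in CtrlK and 30.5, 47.2 and 77.6 in DNK, which overlapped (log2 fold change −0.63 ± 0.52, edgeR adjusted p = 0.473).

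Of the 69 scarce genes 11 had no count in any library, 34 had 1 to 9 counts in all and 24 had 10 or more. With no filter 58 of them entered the fit and 0 were called by edgeR, with 5 at an unadjusted p under 0.05 (tnfrsf1b, il6r, il2rb, crfb12 and il22ra2). Over all 23176 genes in that fit 370 were called, and 2324 had an unadjusted p under 0.05. The group totals differed by 10 counts or more in 3 of the 69 scarce genes. These were tnfrsf1b and il6r, given above, and ghrhra with 25 counts in CtrlK and 7 in DNK.

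Downstream of the receptors, most tested genes did not pass, and each pathway list below held at most 1 called gene. Beside each count stands the same background, 4.72% of all tested genes called higher in DNK. Of 5 tested JAK and STAT genes 1 rose. JAK1 (ENSDARG00000020625), the kinase bound by gp130 and by many interleukin and interferon receptor chains, had 466, 298 and 556 CPM in CtrlK replicates 1, 2 and 3 and 1111, 1069 and 945 in DNK. Its log2 fold change was 1.24 ± 0.31 (SE, edgeR adjusted p = 0.0259). Leaving out CtrlK replicate 2 ended the JAK1 call (adjusted p = 0.0887), as did leaving out DNK replicate 1 (0.0883), 2 (0.0751) or 3 (0.0503). Library size alone (0.0591) ended it as well, as did scaling to the 200 most abundant genes (0.242, log2 fold change 0.46) and the covariate (0.919). Of 6 tested genes for SOCS proteins and phosphatases 1 rose, a copy of SOCS3 (ENSDARG00000026611), a feedback inhibitor of gp130 and G-CSF receptor signalling. This copy averaged 790.0 ± 254 CPM in CtrlK against 1878 ± 222 in DNK (SD, n = 3; log2 fold change 1.25 ± 0.29, edgeR adjusted p = 0.0202). That call was lost without DNK replicate 1 (0.0839) or 2 (0.0591), and under scaling to the 200 most abundant genes, where the log2 fold change was 0.47. The covariate ended it as well (0.748). The other tested copy of SOCS3 had 30 counts in CtrlK against 32 in DNK and did not pass (log2 fold change 0.19 ± 0.50, edgeR adjusted p = 0.836).

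Against the 4.72% of all tested genes called higher, 1 of 6 tested genes for TNF receptor adaptors and death signalling rose, BIRC2 (ENSDARG00000044619), which encodes the ubiquitin ligase cIAP1 of TNF receptor complexes. It had 408, 391 and 863 CPM in CtrlK replicates 1, 2 and 3 and 2862, 2025 and 2504 in DNK, with no overlap. The log2 fold change was 2.15 ± 0.33 (SE, edgeR adjusted p = 0.00446), or 1.40 scaled to the 200 most abundant genes. The BIRC2 call was lost only with the covariate (adjusted p = 0.843). The TRAF genes tested, TRAF7, traf1 and TRAF4, had log2 fold changes of −0.70 ± 0.46, −0.70 ± 0.52 and −0.46 ± 0.45 (SE) and did not pass. Of 7 tested NF-kB genes 1 rose. REL (ENSDARG00000055276), a subunit of NF-kB, averaged 504 ± 224 CPM in CtrlK against 1632 ± 657 in DNK (SD, n = 3; log2 fold change 1.69 ± 0.37, edgeR adjusted p = 0.0162). That call did not hold without CtrlK replicate 2 (0.0583) or DNK replicate 1 (0.0808) nor under scaling to the 200 most abundant genes (0.0571, log2 fold change 0.90). The covariate ended it as well (0.941).

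Of 9 tested ligand genes 0 passed by edgeR (1 at an unadjusted p under 0.05). The smallest p was that of the interferon gene ifnphi3, at 185 ± 14.3 CPM in CtrlK against 93.4 ± 47.5 in DNK (SD, n = 3; log2 fold change −0.98 ± 0.44, edgeR adjusted p = 0.185). It passed only when scaled to the 200 most abundant genes (0.0160, log2 fold change −1.79), where the median of all tested genes was −0.86. In the other settings its adjusted p was 0.0726 or more. The single tested gene for IL-1 and Toll receptor adaptors, MAP3K7, had a log2 fold change of 0.44 ± 0.41 (SE, edgeR adjusted p = 0.527). The medians were 0.13 for JAK and STAT genes, 0.53 for SOCS proteins and phosphatases, −0.28 for TNF receptor adaptors, 0.75 for NF-kB genes and 0.26 for ligands, against −0.07 over all tested genes.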

How the data were processed

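The authors deposited raw counts, whole numbers by Ensembl gene ID, in a table for each of the 3 CtrlK and 3 DNK libraries. The labels' protocols describe sorting followed by MALBAC amplification. The submitters' processing notes name HISAT2 2.1.0, HTSeq 0.6.1, Trim Galore 0.6.0, DESeq2 1.22.2 and build GRCz11. Strand setting and annotation release: not given in the sources used here. Overlapping genes therefore cannot be told apart with certainty. Entries that name no gene (5 per table) held 98.5% to 98.9% of each total and were left out. Without molecular identifiers, counting limits cover counting error only.

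Names came from a table that named 29201 of 32520 IDs. Levels of different genes were not tested against each other, since no lengths were used. Words such as scarce or well represented refer to counts alone. Neighbours were read, without coordinates, from the RefSeq gene order of GRCz12tu, a build other than that of the counts. edgeR 4.0.16 in R 4.3.3 tested the 3792 genes kept by filterByExpr (TMM factors, glmQLFit with robust = TRUE, glmQLFTest). Calls had a Benjamini-Hochberg adjusted p under 0.05 over all of them. The SE of a log2 fold change is its size over the root of F. Normalized CPM uses TMM-scaled library sizes summed over tested genes. The steps were tested on simulated counts. The 6 libraries differed pairwise beyond sampling noise (chi-square per degree of freedom 3.55 to 12.8).

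The members and lists were chosen with earlier results of these data known, so no list is independent evidence. Every receptor gene with at least 10 counts in 3 libraries is named, scarcer ones where group totals differ by 10 or more, and of each list the called genes or, if none was, the one with the smallest p. Other genes named, such as scarce partners, ligands, neighbours, cdh5, lyz, MMP9, ptprc, the TRAF genes and TNFRSF19, were picked after their values were seen. Alternatives were other scalings, filters and tools (DESeq2 1.42.0, limma-voom with limma 3.58.1), a replicate block, a covariate and each library left out.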

Additional observations from a re-analysis of the deposited data

How the results depend on the processing

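The calls of il13ra1 and CSF3R held in 15 of 16 alternatives. Scaled to the 200 most abundant genes, 4 of the 14 tested receptor genes were called, 2 higher and 2 lower. Of all 3792 tested genes 1079 were called under that scaling. With the covariate 0 receptor genes and 1 of all tested genes were called (edgeR, 249 of all genes at an unadjusted p under 0.05). The median log2 fold change of the tested receptor genes was 0.39 as reported and 0.076 with library size only. It was −0.41 scaled to the 200 most abundant genes and 0.14 with the covariate.

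Of all tested genes 270 were called, 179 higher and 91 lower (66.3% higher). Scaling to the 200 most abundant genes gave 1079 (55 higher, 1024 lower, 5.10% higher), library size only 112 higher and 248 lower (31.1% higher), no filter 283 higher (76.5% of calls), scaling to unassigned reads 60 lower (79.4% higher), limma-voom 46 lower, and the covariate 1 higher and 0 lower. Leaving out 1 library gave 89 (without DNK replicate 1) to 277 (without CtrlK replicate 3) calls, 74 to 213 higher and 14 to 64 lower. Fewer libraries enter these fits. For the other changes the cause was not tested.

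Signs turned for uncalled genes. Scaled to the 200 most abundant genes, ghra stood at −0.0072, crfb4 at −0.41, cxcr3.3 at −0.59, il12rb2l at −0.27, il10ra at −0.42, il6st at −0.53 and MAP3K7 at −0.33. With library size only, cxcr3.3 stood at −0.13 and il6st at −0.077. With the covariate, il11ra stood at 0.89, ghra at −0.13, cxcr3.3 at −0.23, il6st at −0.88 and MAP3K7 at −0.40. With a library left out, TNFRSF21 ranged from −0.71 to 0.077, cxcr3.3 from −0.034 to 0.36 and il6st from −0.060 to 0.62.

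The replicate block gave 253 calls, with 2 receptor genes. Same-numbered libraries had correlations of −0.10, −0.01 and −0.04 in their deviations from the group means, so the numbers were not taken as pairs. With 174371 to 227373 gene counts per library, 14 of the 85 receptor genes had enough counts for the main test. A further 2 met only the laxer entry rule, and 69 met neither. With no filter 58 of these 69 entered the fit and 0 were called by edgeR (5 at an unadjusted p under 0.05).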
